A study of Mus musculus with 4 samples.

Results

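Chromatin and DNA methylation regulators are the enzymes and complex subunits that write, read and erase methyl and acetyl groups on histones and DNA, or that move nucleosomes. A list of 49 such genes was followed here in splenic naive T cells of mice, taken through Treg induction and compared between KO and WT. A probe set is the group of short probes that reads 1 transcript on the array, and only probe sets annotated to a single gene were used. Of the 49 genes, 48 had such a probe set and 47 passed a filter that removed the dimmest 40% of probe sets. Suv39h1, an H3K9 methyltransferase, had no probe set naming it alone, and Hdac9, a class IIa deacetylase, fell below the filter. Where a gene had several probe sets, the one with the highest mean over the 4 arrays stood for it.

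The series holds 4 single-colour Affymetrix arrays, 2 WT and 2 KO, each from its own numbered mouse source. Naive T cells of either genotype, freshly taken from spleen, were kept for 3 days under Treg-inducing conditions, and total RNA was extracted with Trizol. The labels call both groups Treg cells and do not name the gene removed in KO, its promoter or Cre driver, the strain or the age of the mice, so no member is read as the target. The deposited values are MAS5 signals, linear intensities whose trimmed mean was scaled to 500 on every array.

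Polycomb repressive complex 2 (PRC2) methylates histone H3 at lysine 27, and Polycomb repressive complex 1 (PRC1) binds that mark and ubiquitinates histone H2A. DNA methyltransferases methylate cytosine in CpG dinucleotides, while Tet enzymes oxidise the methyl group on the way to its removal. In regulatory T cells, loss of methylation at a conserved element of the Foxp3 locus is known for keeping Foxp3, the lineage-defining transcription factor, stably expressed, and Ezh2 is known for its part in keeping the Treg programme after activation.

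Most members read lower in KO. With 1 probe set per gene, 16 of 47 tested members were called lower in KO (34%) and 1 was called higher (2.13%), and 30 were not called. A call is an adjusted p below 0.05 in limma's moderated test on log2(signal + 16), with p-values adjusted by Benjamini-Hochberg across 27022 probe sets. By that rule 17.1% of all tested probe sets and 20.3% of all 12547 tested genes were called, 9.87% of genes lower and 10.5% higher. The members' median log2 difference, KO minus WT, was -0.30, against -0.03 over all tested genes. Below 0 lay 34 of 47 members (72.3%) and 52.5% of all tested genes. In 28 members (59.6%) both KO arrays read below both WT arrays, and in 6 (12.8%) both read above. Over all genes these shares were 32.9% and 29.8%.

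The count of lowered members rests on a small design. It was 7 without WT array 1 and 6 without WT array 2, against 14 and 12 without KO arrays 1 and 2. Without the intensity trend in the variance prior 0 members were called by limma, although 14 (29.8%) lay lower and 1 higher at an unadjusted p below 0.05. In that fit 1.63% of all tested genes were called lower. At an unadjusted p below 0.05, 1693 of all 12547 genes (13.5%) lay lower and 1745 higher. With 2 arrays a group, p-values reflect no more than the variation among these 4 samples, part of which may be technical, and an exact permutation test could not give a two-sided p below 0.333. The arrays themselves differed little within a group: the median absolute log2 difference between replicates over the members was 0.11 in WT and 0.12 in KO.

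**Figure D1:**
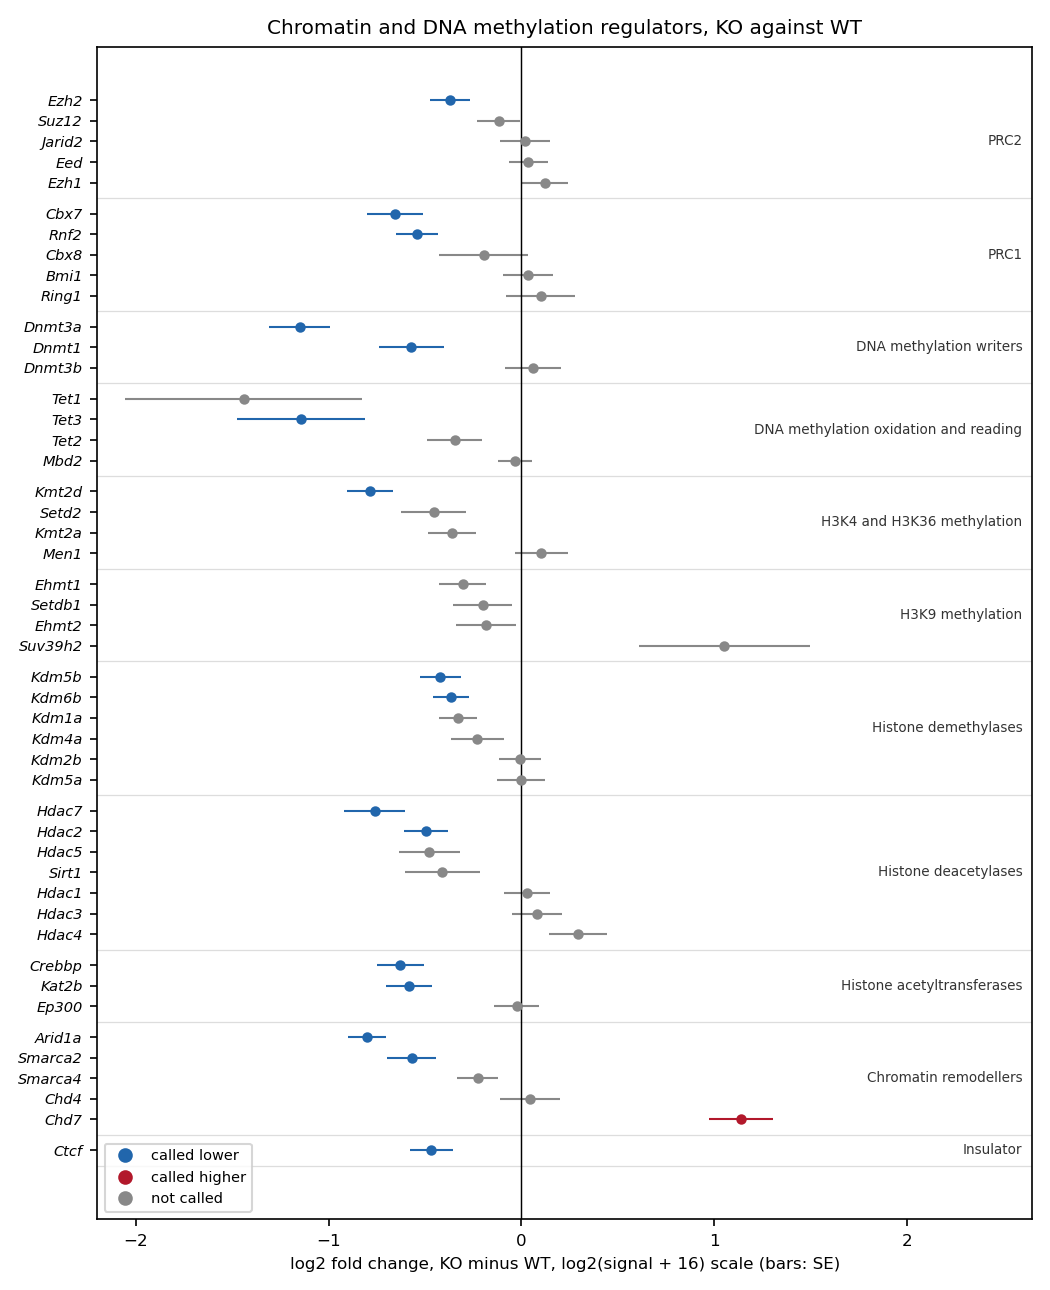
Log2 fold change, KO minus WT, of the 47 tested members on the log2(signal + 16) scale, grouped by role, with bars for the standard error of the fit. Blue points are the 16 members called lower, red is Chd7, called higher, and grey points are the 30 not called.

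Among the PRC2 members, the catalytic subunit Ezh2 was the one called. Its signals were 3498 and 3494 on the WT arrays and 2772 and 2632 on the KO arrays. Both KO arrays lay clearly below both WT arrays, which were almost equal. The mean fell from 3496 ± 2.79 to 2702 ± 98.6 (SD, n = 2 each), 1.29-fold, a log2 difference of -0.37 ± 0.10 (SE, adjusted p = 0.0405). The call was lost without either WT array or without KO array 2. Ezh1, the alternative catalytic subunit of resting cells, read 1580 and 1492 in WT and 1624 and 1726 in KO and was not called (0.12 ± 0.12, adjusted p = 0.521). The core partners Eed, which binds the methylated histone, and Suz12, which holds the complex together, differed by 0.04 and -0.12 on the log2 scale, and Jarid2, which recruits PRC2, by 0.02. These 3 had overlapping groups and were not called.

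In PRC1, 2 of 5 members fell. Rnf2 encodes the E3 ligase that ubiquitinates H2A. It read 2411 and 2481 in WT and 1684 and 1672 in KO. The means, 2446 ± 50 and 1678 ± 8.53 (SD, n = 2 each), lay 1.45-fold apart (log2 -0.54 ± 0.11, adjusted p = 0.0119), with a wide gap between the groups. Cbx7, the chromodomain subunit that reads the PRC2 mark, read 935 and 1043 in WT and 591 and 654 in KO. It fell 1.57-fold (log2 -0.65 ± 0.15, adjusted p = 0.0183), again with no overlap. Without either WT array the call of Rnf2 was lost, and Cbx7 lost its call without WT array 2 or KO array 1. A dim second Cbx7 probe set read -0.32 ± 0.37 (adjusted p = 0.61), and the mean of both was not called (-0.49, adjusted p = 0.0978). Ring1, the paralog ligase of Rnf2, read 326 and 322 in WT against 357 and 341 in KO (0.10 ± 0.18, adjusted p = 0.747). The chromodomain protein Cbx8 (-0.20) and Bmi1 (0.03), the partner of the ligases, had overlapping groups and were not called.

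Of the DNA methyltransferases, Dnmt3a and Dnmt1 fell and Dnmt3b was not called. Dnmt3a, a de novo methyltransferase, read 1412 and 1416 in WT and 551 and 716 in KO. The mean fell from 1414 ± 2.62 to 633 ± 116 (SD, n = 2 each), 2.22-fold (log2 -1.15 ± 0.16, adjusted p = 0.0019). Both KO arrays read far below the nearly identical WT arrays. Of its 5 tested probe sets, 3 were called lower (-1.15, -1.10 and -0.95), 1 read lower without a call (-0.69, adjusted p = 0.0545) and the dimmest read 0.22 (adjusted p = 0.664). Dnmt1, the maintenance enzyme that copies methylation onto new DNA strands, read 6660 and 5156 in WT and 4580 and 3394 in KO. The groups did not overlap, but each spread widely. The mean fell 1.48-fold from 5908 ± 1064 to 3987 ± 838 (log2 -0.57 ± 0.17), and the adjusted p of 0.0498 lay just inside the threshold. Its further probe sets read -0.50 (adjusted p = 0.0587) and -0.39 (adjusted p = 0.179). The call of Dnmt1 was kept in 7 of 14 alternative settings and was lost without WT array 1 or KO array 2. Dnmt3b, the other de novo enzyme, read 784 and 773 in WT and 758 and 870 in KO (0.06 ± 0.14, adjusted p = 0.821).

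The 250 bases before the most upstream Dnmt3a start of the RefSeq promoter table (GRCm38.p6, chr12:3806730-3806979, plus strand) are shown because Dnmt3a had the largest called difference among the members. Capitals mark the CpG dinucleotides, the substrate of the enzyme itself, of which this stretch holds 38.
Dnmt3a: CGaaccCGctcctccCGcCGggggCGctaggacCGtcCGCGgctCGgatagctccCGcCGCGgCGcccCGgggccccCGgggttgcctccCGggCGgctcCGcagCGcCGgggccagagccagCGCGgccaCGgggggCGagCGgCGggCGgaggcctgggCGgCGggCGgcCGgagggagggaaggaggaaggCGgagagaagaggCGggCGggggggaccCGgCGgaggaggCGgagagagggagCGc
Of the 49 members, 43 had a window in that table, of 250 bases before to 50 bases after a start. The CpG count of the richest window per gene had a median of 31 over these members and of 21 over all 10143 tested genes with a window. The arrays measured no DNA methylation.

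Within the oxidation and reading group, 1 of 4 members was called. Tet3 read 276 and 257 in WT and 164 and 75.2 in KO, a fall from 267 ± 13.4 to 120 ± 62.8 (SD, n = 2 each), 2.21-fold (log2 -1.14 ± 0.33, adjusted p = 0.0479). Both KO arrays were below WT but stood 0.98 apart on the log2 scale, and the call was kept in 7 of 14 alternatives and lost without either WT array or KO array 2. Tet1 was dim, at 122 and 78.3 in WT and 67.5 and 5.19 in KO. Its groups did not overlap, yet the KO arrays stood far apart and it was not called (-1.44 ± 0.62, adjusted p = 0.152). Without KO array 1 it was called (-2.43, adjusted p = 0.011). A second Tet1 probe set read 88.4 and 109 in WT and 37.9 and 13.7 in KO and was called lower (-1.51 ± 0.43, adjusted p = 0.0431), while the dimmest read 0.05 (adjusted p = 0.949). Tet2 read 864 and 916 in WT and 659 and 736 in KO, without overlap and without a call (-0.35 ± 0.14, adjusted p = 0.14). A dimmer Tet2 probe set read 349 and 466 in WT and 144 and 222 in KO and was called (-1.11 ± 0.26, adjusted p = 0.0213). Tet2 and Tet3 thus read lower in KO on their chosen probe set, which was called for Tet3 alone. The calls of Tet1 and Tet2 came from another probe set of the gene. For Tet1, the chosen and the called probe set passed the filter through WT alone. Both had to read lower in KO, so they support no direction. Mbd2, which binds methylated CpG, read -0.03 ± 0.09 and was not called.

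**Figure D2:**
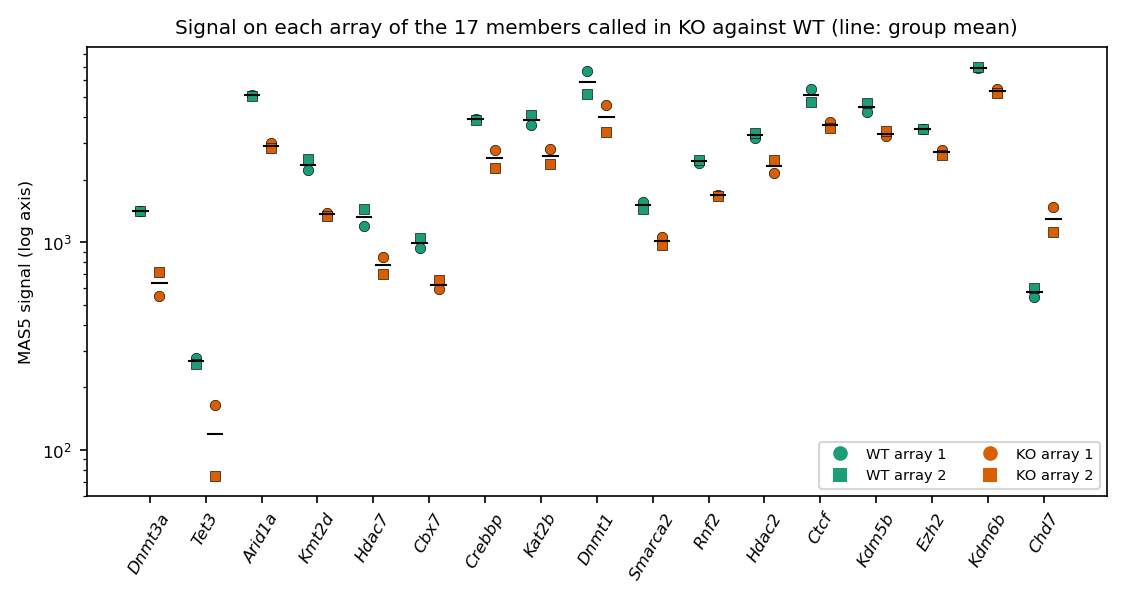
MAS5 signal on each of the 4 arrays (log axis) for the 17 called members, with circles for array 1, squares for array 2 and a line at each group mean. In 16 genes both KO arrays lie below both WT arrays, and in Chd7 both lie above. Heights are not compared between genes, since each probe set has its own brightness.

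Enzymes of H3K4 and H3K36 methylation gave 1 call in 4. Kmt2d, an H3K4 methyltransferase of enhancers, read 2215 and 2500 in WT and 1384 and 1336 in KO. It fell from 2357 ± 201 to 1360 ± 33.7 (SD, n = 2 each), 1.72-fold (log2 -0.78 ± 0.12, adjusted p = 0.00321), with KO well below WT on both arrays. A second, dim probe set of Kmt2d read the other way without a call, at 22.9 and 17.4 in WT and 54.7 and 59.0 in KO (1.01 ± 0.42, adjusted p = 0.141), and the unweighted mean of both probe sets gave 0.11 (adjusted p = 0.661). That dim probe set passed the filter through KO alone and had to read higher there. It and the mean that includes it therefore support no direction. Kmt2a, a paralog, read 1527 and 1471 in WT and 1102 and 1230 in KO, and Setd2, the H3K36 methyltransferase, 689 and 888 in WT and 583 and 551 in KO. Neither passed the test (Kmt2a -0.36 ± 0.13, adjusted p = 0.0883; Setd2 -0.45 ± 0.17, adjusted p = 0.105), although neither group pair overlapped. Men1, the menin subunit that tethers Kmt2a to chromatin, read slightly higher in KO (0.10 ± 0.14, adjusted p = 0.661).

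No H3K9 methyltransferase was called by limma, and 1 of the 4 tested, Ehmt1, lay lower at an unadjusted p below 0.05. Ehmt1 (GLP) read 1911 and 1932 in WT and 1645 and 1465 in KO (-0.30 ± 0.12, adjusted p = 0.121). Ehmt2 (G9a), its partner, read 1525 and 1544 in WT and 1567 and 1161 in KO, with overlap (-0.18 ± 0.16, adjusted p = 0.471). Setdb1, the methyltransferase recruited through Trim28, read 771 and 669 in WT and 607 and 639 in KO (-0.20 ± 0.15, adjusted p = 0.412). Suv39h2 ran the other way, at 104 and 30.7 in WT and 149 and 131 in KO. Its difference of 1.05 ± 0.44 had an adjusted p of 0.146, the WT arrays differed from each other by 1.36 on the log2 scale, and without WT array 1 it was called (1.73, adjusted p = 0.023). Its other probe set had overlapping groups (0.26 ± 0.36, adjusted p = 0.67).

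Of 6 histone demethylases, Kdm5b and Kdm6b fell. Kdm5b removes H3K4 methylation, and read 4219 and 4686 in WT and 3227 and 3417 in KO. The mean went from 4453 ± 330 to 3322 ± 134 (SD, n = 2 each), 1.34-fold lower (log2 -0.42 ± 0.11, adjusted p = 0.0288), and of its 3 further probe sets 2 were called lower (-0.64 and -0.99). Kdm6b removes the H3K27 methylation that PRC2 writes. Its signals of 6855 and 6933 in WT and 5456 and 5243 in KO gave means of 6894 ± 55.5 and 5350 ± 151, 1.29-fold apart (log2 -0.37 ± 0.09, adjusted p = 0.0285), and a further probe set was called at -0.60. Both genes lost their call without either WT array, and Kdm5b also without KO array 1. The writer Ezh2 and the eraser Kdm6b of the same mark were therefore both called lower, by 1.29-fold each. Kdm1a (LSD1) read 4777 and 4476 in WT and 3716 and 3651 in KO and just missed the threshold (-0.33 ± 0.10, adjusted p = 0.055). Kdm4a, which acts on H3K9 and H3K36 methylation, read -0.23 without overlap, and Kdm2b and Kdm5a read -0.0070 and -0.0026 with overlapping groups.

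Among the 7 tested histone deacetylases, Hdac7 and Hdac2 fell. Hdac7 is a class IIa deacetylase with a known role in thymocytes. It read 1194 and 1444 in WT and 846 and 698 in KO, a 1.69-fold fall from 1319 ± 177 to 772 ± 104 (SD, n = 2 each; log2 -0.76 ± 0.16, adjusted p = 0.0134). Hdac2, a class I enzyme of the NuRD, Sin3 and CoREST complexes, read 3169 and 3365 in WT and 2162 and 2479 in KO, a 1.41-fold fall (log2 -0.49 ± 0.12, adjusted p = 0.0216), and a second probe set was called at -0.69 (adjusted p = 0.0108). Neither gene's groups overlapped. The call of Hdac7 was lost without WT array 2, and that of Hdac2 without either WT array or KO array 1. Hdac1, the paralog that shares those complexes, read 7365 and 6633 in WT and 6438 and 7887 in KO (0.03 ± 0.12, adjusted p = 0.905), with overlap and a sign that turned under quantile normalization. Hdac5 (-0.48 ± 0.16, adjusted p = 0.0744) and Sirt1 (-0.41 ± 0.19, adjusted p = 0.189) read lower without overlap and without a call. Hdac4, another class IIa enzyme, read 529 and 518 in WT and 661 and 631 in KO (0.30 ± 0.15, adjusted p = 0.222), and its dimmest probe set was called higher (1.21 ± 0.32, adjusted p = 0.0328). Hdac3, the NCoR-bound deacetylase, had overlapping groups (0.08). Below the filter, Hdac9 read 29.4 and 63.3 in WT and 2.84 and 19.4 in KO.

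Of the 3 acetyltransferases, Crebbp and Kat2b fell and Ep300 was not called. Crebbp (CBP) read 3932 and 3866 in WT and 2775 and 2281 in KO. Its mean fell from 3899 ± 46.5 to 2528 ± 349 (SD, n = 2 each), 1.55-fold (log2 -0.63 ± 0.12, adjusted p = 0.00966), and 2 of its 3 further probe sets were called lower, at -0.55 and -0.99. Ep300 (p300), the paralog that acetylates the same histone residues, read 2011 and 2235 in WT and 2168 and 2004 in KO. Its groups overlapped (-0.02 ± 0.12, adjusted p = 0.915), with a sign that turned when arrays were centred on their median. Whether Crebbp and Ep300 differ from each other in their response was not tested. Kat2b (PCAF) read 3670 and 4091 in WT and 2797 and 2383 in KO, with no overlap. It fell 1.5-fold (log2 -0.58 ± 0.12, adjusted p = 0.0131), and the call was lost without WT array 2 or when cross-hybridising probe sets were left out.

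The remodellers held the smallest adjusted p of the list and its single called rise. Arid1a, the DNA-binding subunit of the canonical BAF form of SWI/SNF, read 5117 and 5051 in WT and 2983 and 2842 in KO. The mean fell from 5084 ± 47.0 to 2913 ± 99.7 (SD, n = 2 each), 1.74-fold (log2 -0.80 ± 0.10, adjusted p = 0.00109), with each pair of replicates close together. Smarca2 (BRM), an ATPase of the same complexes, read 1566 and 1445 in WT and 1053 and 966 in KO and fell 1.48-fold (log2 -0.57 ± 0.13, adjusted p = 0.0189), a call lost when KO array 2 or either WT array was left out. A second Smarca2 probe set had overlapping groups (-0.16 ± 0.24, adjusted p = 0.693), and the mean of both was not called (-0.37, adjusted p = 0.153). Its alternative Smarca4 (BRG1) read 3644 and 3433 in WT and 3173 and 2880 in KO and was not called (-0.23 ± 0.11, adjusted p = 0.192). Chd4, the NuRD ATPase, had overlapping groups (0.05 ± 0.16).

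Chd7, a CHD-family remodeller of enhancers, read 546 and 602 in WT and 1473 and 1117 in KO. It rose 2.20-fold, from 574 ± 39.3 to 1295 ± 252 (SD, n = 2 each; log2 1.14 ± 0.17, adjusted p = 0.00265), with both KO arrays far above WT. A second Chd7 probe set did not follow, at 418 and 629 in WT and 580 and 435 in KO (-0.03 ± 0.23, adjusted p = 0.948), and the mean of both was not called (0.56, adjusted p = 0.063). Ctcf, the zinc finger protein that anchors chromatin loops, read 5466 and 4705 in WT and 3790 and 3544 in KO. It fell 1.38-fold, from 5085 ± 538 to 3667 ± 174 (log2 -0.47 ± 0.11, adjusted p = 0.0234), without overlap, and its second probe set was also called (-0.56, adjusted p = 0.00747). The call of the first was lost without WT array 1.

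**Figure D3:**
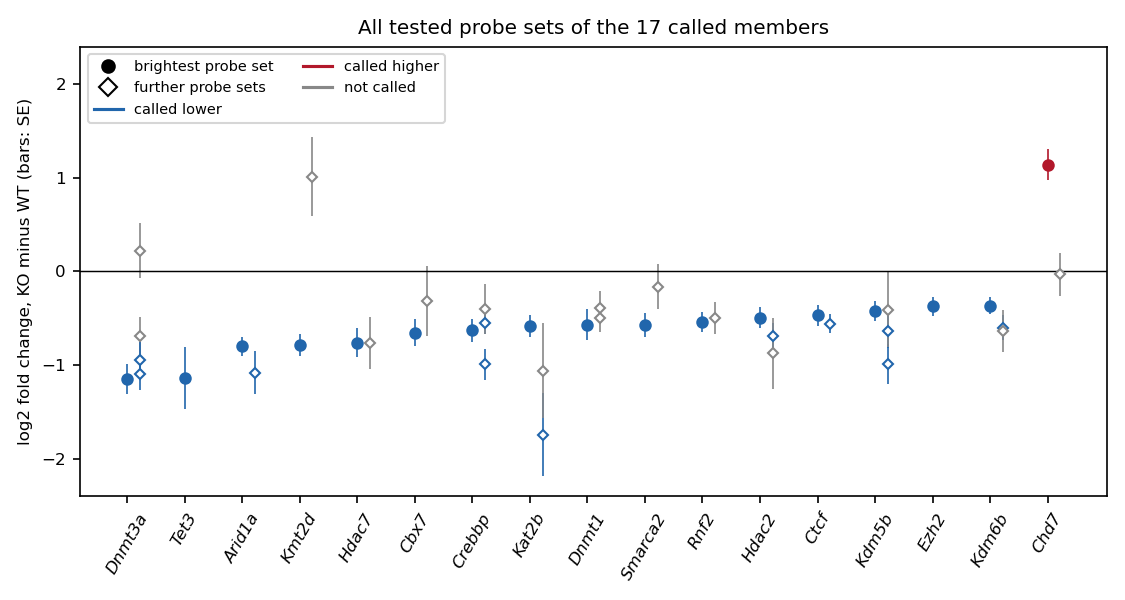
Log2 fold change, KO minus WT, with standard error bars, for all tested probe sets of the 17 called members. Filled circles are the brightest probe set of each gene and open diamonds the further ones. Kmt2d (1.01) and Dnmt3a (0.22) each have a dim probe set above 0, and the second Chd7 probe set lies at -0.03. That of Kmt2d passed the filter through KO alone.

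Probe sets of 1 gene can read different transcript ends, and 33 tested members had more than 1. Of their 56 further probe sets 13 were called lower, 1 higher and 0 against a called chosen probe set. Of the 15 called members with several probe sets, 8 had a further one called the same way, Dnmt3a, Arid1a, Crebbp, Kat2b, Hdac2, Ctcf, Kdm5b and Kdm6b. The other 7, Rnf2, Cbx7, Dnmt1, Kmt2d, Hdac7, Smarca2 and Chd7, rest on a single called probe set. The further called probe sets of Kat2b and Tet1 passed the filter through WT alone and had to read lower in KO. For Kat2b the further call therefore adds nothing to the first. Calls of Arid1a, Dnmt3a and Crebbp were kept in 13 of 14 alternatives, all but the fit without an intensity trend, where their adjusted p-values were 0.0623, 0.0545 and 0.115.

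Bright genes are called more readily, and 29 of the 47 members were in the bright class when tested genes were cut by mean signal into 3 equal classes. There 12 members (41.4%) were called lower, with a median log2 difference of -0.30, against 16.1% and -0.04 over all genes of that class. In the middle class 3 of 15 members (20%) were called lower, against 10.8% of genes, and in the dim class 1 of 3, Tet3, against 2.68% of genes.

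Of 168 further chromatin genes, 154 were tested, and 32 (20.8%) were called lower and 4 (2.6%) higher, where 9.87% and 10.5% of all tested genes were. Their median log2 difference was -0.24, and 123 (79.9%) lay below 0, against 52.5% of all tested genes, and 31 above. The 4 called higher were Aebp2, a PRC2 cofactor, Pcgf5 of a variant PRC1, Zbtb38, which binds methylated DNA, and Jmjd1c of the demethylase family. Without WT arrays 1 and 2 in turn the counts called lower were 15 and 10, and without the intensity trend 2. Aebp2 read 4250 and 4889 in WT and 8043 and 7746 in KO (0.79 ± 0.10, adjusted p = 0.00151).

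**Figure D4:**
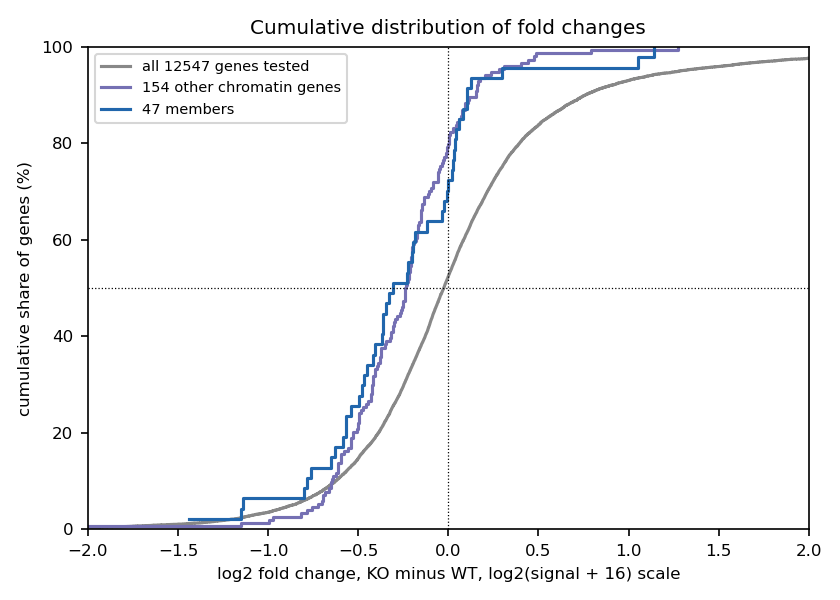
Cumulative share of genes (%) against log2 fold change, KO minus WT, for the 47 tested members, 154 other chromatin genes and all 12547 tested genes. Both chromatin curves lie left of the curve of all genes over most of its range, with medians of -0.30 and -0.24 against -0.03.

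The counts of each further list stand beside 9.87% of all tested genes called lower and 10.5% called higher. Around the Polycomb members, 5 of 12 other PRC1 subunits fell (41.7%), among them Phc1 (log2 -1.15 ± 0.16, adjusted p = 0.00188) and Cbx2 (-0.996 ± 0.179, adjusted p = 0.00704), while Pcgf5 rose (0.49). Of 6 PRC2 accessory genes Rbbp4, a histone-binding subunit, fell (-0.35) and Aebp2 rose. Among 9 partners of DNA methylation, Uhrf1, which brings Dnmt1 to newly replicated DNA, fell together with it (-0.53 ± 0.15, adjusted p = 0.0429). Zbtb38 rose (1.28 ± 0.20, adjusted p = 0.00335), and the cytidine deaminase Apobec1, known mainly for editing RNA, fell from 1031 and 1019 in WT to 114 and 194 in KO (-2.66 ± 0.24, adjusted p = 0.000239).

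Of 12 genes of H3K4 methyltransferase complexes 3 fell (25%, against 9.87% of all tested genes), Setd1b (-0.82), Kmt2c (-0.65) and Wdr5 (-0.64). Of 7 heterochromatin genes 3 fell, Cbx1 (HP1 beta, -0.75), Trim28 (KAP1, -0.70) and Atf7ip (-0.64), the last a cofactor of Setdb1, which itself was not called. SWI/SNF gave 5 of 17 lower, led by Brd7 (-0.72), Arid1b (-0.70) and Bcl7b (-0.61), and the other remodellers 4 of 18, led by Atrx (-0.68), Bptf (-0.61) and Chd9 (-0.58). Both Arid1a and its paralog Arid1b were thus called lower.

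Ncoa3 (-0.97 ± 0.12, adjusted p = 0.000971) and Ncoa1 (-0.54), both nuclear receptor coactivators, fell among 12 acetyltransferases and readers (16.7%). Among 13 demethylases Kdm7a (-0.79) and Phf2 (-0.53) fell (15.4%) and Jmjd1c rose (0.44). Nsd1 (-0.65), an H3K36 methyltransferase, fell among 13 other methyltransferases (7.69%), a share below the 9.87% of all tested genes called lower. Of the loop-related genes Stag2 (-0.56) and Nipbl (-0.54), a cohesin subunit and its loader, fell out of 10 tested, and of 7 histone chaperones Chaf1b (-0.66) and Asf1a (-0.43). Among 18 other deacetylases and corepressors limma called 0, with 6 lower at an unadjusted p below 0.05.

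Promoter sequence was searched for E2F-type motifs because DNA replication genes, whose promoters are the textbook E2F targets, held lower calls as well. Of 19 tested replication genes 9 (47.4%) were called lower and 0 higher, where 9.87% and 10.5% of all tested genes were. Tyms had the largest difference, on a dim probe set at 90.4 and 108 in WT and 2.47 and 27.0 in KO (log2 -2.03 ± 0.50, adjusted p = 0.0265). It is among the 9, but it passed the filter through WT alone and had to read lower, so it supports no direction. Pold1 fell by 0.94 and Cdc6 by 0.84 on the log2 scale. Of the 19 replication genes 17 lay below 0, with a median of -0.41. Over all tested genes 52.5% lay below 0. Of 15 tested mitosis genes limma called 0, with 2 lower at an unadjusted p below 0.05 (Kif23 and Cenpa), but 14 lay below 0, with a median of -0.26. The difference between these lists was not tested. The motif was TTTCCCGC, TTTGGCGC or TTTCGCGC on either strand, all of which contain a CpG and are met more easily in CpG-rich windows. It was present in 606 of 32851 RefSeq windows (1.84%) and in at least 1 window of 4.05% of tested genes, 5.72% of genes called lower and 2.8% of genes called higher. Among the 43 members with a window 4 held it (9.3%), 3 of 15 called lower and 1 of 26 not called. The CpG count of the richest window per gene had a median of 24 over genes called lower and 18 over genes called higher. The windows of the replication genes were not counted separately for the motif, and the counts among members are small. Whether the motif shares follow the CpG content, or whether E2F has a part in the lower calls, was not tested.

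The stretches around these matches are given to show how the holders differ, 5′ to 3′ on the strand of the gene, from RefSeq on GRCm38.p6, with the motif in capitals. They lie at chr4:133754022-133754051 (Arid1a, minus strand), chr6:47595009-47595038 (Ezh2, minus), chr9:20952574-20952601 and chr9:20952824-20952853 (Dnmt1, minus) and chr11:79992876-79992905 (Suz12, plus).
Arid1a: tccctccctccTTTCCCGCcccctccccct
Ezh2: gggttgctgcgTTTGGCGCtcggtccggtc
Dnmt1 near its start: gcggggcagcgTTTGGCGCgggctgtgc
Dnmt1 upstream: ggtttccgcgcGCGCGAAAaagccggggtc
Suz12: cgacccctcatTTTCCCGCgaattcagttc
In Arid1a and Suz12 the motif has the same letters, at -55 and -219 from the start. The Arid1a match lies in its window at chr4:133753936-133754235, and its window at chr4:133756720-133757019 holds none. Arid1a was called lower and Suz12 was not called (-0.12), and these genes were not compared with each other. Ezh2 and the first Dnmt1 match share the letters TTTGGCGC, at positions 3 and 33 after the start. The second Dnmt1 match, at -219, lies on the opposite strand and so reads GCGCGAAA here. A match is a description of letters, and factor binding was not measured.

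Targets of the silencing systems were mostly dim on both groups of arrays. Of 35 listed genes that Polycomb represses in many adult tissues, 32 had a probe set and 14 passed the filter, and 2 rose while 0 fell. Both are cell cycle inhibitors of 1 locus. Cdkn2a read 6.06 and 12.7 in WT and 180 and 107 in KO (log2 2.62 ± 0.42, adjusted p = 0.00413), and Cdkn2b read 69.6 and 87.3 in WT and 562 and 330 in KO (2.25 ± 0.29, adjusted p = 0.00144). Of 18 listed germline genes known for silencing by DNA methylation, 3 passed the filter. Tdrkh rose, from 234 and 211 in WT to 368 and 540 in KO (0.96 ± 0.23, adjusted p = 0.0231). Its signal lay well above the filter in WT too, and its DNA methylation was not measured. Genes that passed the filter through KO alone had to read higher there, so these counts describe the arrays and support no direction.

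Of 9 factors at the Foxp3 locus, Foxp3 and Stat5b fell and Runx3 and Satb1 rose. Foxp3 itself read 2177 and 2033 in WT and 947 and 1101 in KO (log2 -1.03 ± 0.13, adjusted p = 0.00123). In bulk RNA, fewer cells of a type and less RNA per cell cannot be told apart.

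The cells' markers moved with genotype as well. Of 9 T cell markers tested, 5 were called higher in KO (Cd3d, Cd3e, Cd3g, Thy1 and Il2ra) and Foxp3 was called lower. Cd3d read 18632 and 17974 in WT and 25008 and 21779 in KO. Cd4 (-0.33, adjusted p = 0.231) and Cd28 (-0.20, adjusted p = 0.239) were not called. The 9 signals summed to 63340 to 66140 in WT and 91640 to 95710 in KO, and the sums rest mostly on the brightest probe sets. Markers of other cells summed higher in KO. For 8 mast cell and basophil markers the sums were 797 to 1074 in WT and 11070 to 14920 in KO, with 6 of 8 tested called higher, for 4 eosinophil markers 22.1 to 87.3 and 2048 to 5447 (2 of 2), and for 10 monocyte, macrophage and neutrophil markers 460 to 669 and 2343 to 3584 (6 of 8). The 7 B and plasma cell markers summed to 628 to 1351 and 3447 to 6217 (2 of 6), the 2 CD8 T cell markers to 881 to 925 and 2196 to 2653 (2 of 2), and the 3 NK cell markers to 92.5 to 140 and 438 to 871 (1 of 1). Most of the B and plasma cell sum on KO arrays 1 and 2 came from Jchain (4841 and 2421), called higher along with Sdc1. Ms4a1, Cd79a and Cd79b had overlapping groups and were not called, nor was Blk. Most of the NK cell sum on these arrays came from Klrk1 (795 and 373). Sums overlapped for 5 dendritic cell markers, at 202 to 427 and 364 to 376, and 3 erythroid markers summed to 50.2 to 80.4 and 97.0 to 133, with 0 called in either list and 0 at an unadjusted p below 0.05. No marker was at exactly 0, and the defining markers Siglecf, Ccr3, Ncr1, Itgam and Pax5 stayed below the filter. Some tested markers, such as Prg2 (1.16 and 9.03 in WT) and Cpa3 (22.3 and 21.4 in WT), passed the filter through KO alone. Such markers had to read higher in KO, so for them the counts called higher describe the arrays and support no direction. The sums also include markers below the filter. The part of these cells, and of the lower replication genes, in the chromatin results was not tested.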

How the data were processed

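Per the submitters' processing notes, the authors deposited MAS5 signals, linear intensity values for 45101 probe sets on each of 4 arrays. Its version is not given in the sources used here. Such scaling removes differences in total RNA per cell, and its dim signals are noisy. Array medians lay between 56.5 and 62.6, and the number of arrays limits the precision. Replicates correlated at 0.979 in WT and 0.977 in KO, and arrays of different groups at 0.933 to 0.941.

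Platform annotation named 1 gene for 34945 probe sets, several for 932 and none for 9224, the 64 controls among the last. Of the named identifiers, 204 were absent from the RefSeq gene table (GRCm38.p6), and 0 symbols changed. After leaving out controls and the lowest 40% by mean, log2(signal + 16) of 27022 probe sets was tested two-sided in limma 3.58.1 (R 4.3.3; lmFit, eBayes with trend; residual df 2, prior df 6.41), KO against WT. Fold changes are on the log2(signal + 16) scale, which understates dim genes. Calls needed a Benjamini-Hochberg adjusted p below 0.05.

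The members and lists were chosen with earlier results of these data known. Every member is accounted for. Values on each array are given for called members, for members without overlap and a log2 difference of at least 0.5, and for the main catalytic members, and up to 3 called genes per further list are named, with others named where a count is small. Alternatives changed the pseudocount, filter, normalization, variance trend, replicate block, cross-hybridising probe sets, the probe set rule and each array. Promoter windows of Chd7, Hdac1, Hdac3, Kdm5a, Kdm6b and Mbd2 were not used here.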

Additional observations from a re-analysis of the deposited data

How the results depend on the processing

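The direction of the members' median was kept under all 14 alternatives, from -0.31 to -0.28 when each array was left out. Without the intensity trend the counts called lower and higher were 456 and 727 of all probe sets (2477 and 2131 otherwise), 0 and 0 of members (16 and 1) and 2 and 1 of the other chromatin genes (32 and 4), with prior degrees of freedom of 2.28 in place of 6.41. Leaving out each array gave 1033 to 2660 probe sets called lower and 1542 to 1824 higher, 6 to 14 members lower and 1 to 2 higher, and 10 to 33 other chromatin genes lower and 2 to 4 higher, and a group left with 1 array is assumed to vary like the other. With the mean of a gene's probe sets 1 other chromatin gene was called higher. Kmt2d turned to 0.11 in that setting, which includes its dim probe set that passed the filter through KO alone. Ep300 turned to 0.016 with arrays centred on their median and Hdac1 to -0.0019 with quantile normalization. Leaving out arrays gave ranges across 0 for Dnmt3b (-0.037 to 0.16), Ehmt2 (-0.40 to 0.030), Ep300 (-0.10 to 0.051) and Hdac1 (-0.12 to 0.17), none of them called. The causes of these shifts were not tested.

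Median centring and no filter on low signals each left 11 members lower, and the remaining settings 14 to 17. WT 1 and KO 1, and WT 2 and KO 2, share only a number in the labels. Over all tested probe sets, deviations of same-numbered arrays from their group means correlated at 0.0103, which does not speak for single genes. Some genes, Dnmt1 among them, read higher on array 1 in both groups, and others did not. A fit with the replicate block called 17 members lower and 1 higher, kept all 17 calls and added Tet1 (adjusted p = 0.0493), and it called 2970 probe sets lower and 2412 higher and 43 other chromatin genes lower. With 2 arrays a group, a difference that missed the threshold is not shown to be absent, and dim probe sets such as those of Tet1, Tet3 and Suv39h2 carry the widest errors.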
